A study of Mus musculus with 14 samples.

Results

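Endothelin-1, the angiotensin receptors and apelin act on the vessels of the lung. The genes described here are 9 members of these systems, chosen by name: the peptide genes Edn1 and Apln, the processing enzymes Ece1 and Ace, the receptor genes Ednra, Ednrb, Agtr1a and Aplnr, and Nos3, which encodes endothelial nitric oxide synthase. A gene was read from probe sets that the platform annotation assigns to its symbol alone. Where several existed, the probe set with the highest mean over all 14 arrays stood for the gene and the others served as a check. Of the 9 genes, 8 had such a probe set (14 probe sets in all) and all 8 entered the tests, out of 18194 genes with a probe set and 11360 tested. Ednra was not analysed here.

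Endothelial cells make the precursor of endothelin-1, and endothelin-converting enzyme cleaves it to the active peptide. On smooth muscle the peptide constricts vessels through the A-type receptor, while endothelial B-type receptors clear it from the circulation and release nitric oxide. Angiotensin-converting enzyme on lung capillaries makes angiotensin II, which constricts vessels through its type 1 receptor. Apelin relaxes vessels through its own receptor, in part by way of nitric oxide from Nos3.

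Total RNA of whole mouse lung was measured on 14 Affymetrix arrays to compare mechanical ventilation, pre-B-cell colony-enhancing factor (PBEF, the product of Nampt) and both. The group Control (n = 4) was given PBS. VALI (n = 4) was ventilated for 4 hours with a large tidal volume, 40 ml/kg in the sample labels and 30 ml/kg in the series text. PBEF+/- (n = 3) was not ventilated. VILI PBEF+/- (n = 3) was ventilated for 4 hours, with the same tidal volumes stated as for VALI. The labels do not state whether PBEF+/- is a genotype or the recombinant human protein given into the trachea, so the group names are used as labelled. Animals were 18-22 weeks old in Control, VALI and PBEF+/- and 8-12 weeks old in VILI PBEF+/-, so that age and treatment cannot be told apart in any comparison with that last group. No strain is given. Whether arrays come from separate animals is not stated, and the p-values cover only the spread seen among these arrays.

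All values are log2 expression values as deposited. On these arrays the tissue carried its defining markers: the 5 alveolar type II markers tested averaged 13.82 to 14.34 and the 12 endothelial markers 11.95 to 12.48, on the log2 scale. The level of Il6, the cytokine interleukin-6, went against the label in 2 arrays. VALI replicate 4 read 2.78 where the other VALI arrays read 9.60 to 9.85, and PBEF+/- replicate 3 read 10.87 where the other PBEF+/- arrays read 2.10 and 2.56. Each result is therefore given as labelled and also with these 2 arrays left out. The 4 skeletal muscle markers tested averaged 12.61 in VALI replicate 1 and 13.59 in VALI replicate 4, and 4.73 to 8.64 in the other 12 arrays. Without VALI replicate 1 beside the 2 arrays, Aplnr differed between VALI and Control by -1.37 (adjusted p = 0.0234) and was still called, while Nos3 (-0.94, adjusted p = 0.0538), Ednrb (-0.45, adjusted p = 0.106) and Agtr1a (0.43, adjusted p = 0.116) were not. Transcripts of the sex chromosomes also divided the arrays unevenly, with a female pattern in 6 of 7 ventilated and 4 of 7 unventilated arrays. VALI replicate 4 was the only ventilated array with the male pattern. Without the 2 arrays, a sex covariate was therefore estimated from unventilated arrays alone, and whether it holds for ventilated lungs was not tested. In whole lung, fewer cells of a type and less RNA per cell cannot be told apart.

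Among the tested members, Aplnr, the apelin receptor, was the one called with all arrays as labelled. Over the mean of both ventilation responses (VALI minus Control and VILI PBEF+/- minus PBEF+/-), it fell by 1.05 ± 0.25 (standard error) on the log2 scale in the ventilated lungs. It also fell in each response once the 2 arrays were left out. Over the mean of both responses Nos3, Ednrb and Apln were also lower and Agtr1a was higher, with calls that depended on the arrays used. In VILI PBEF+/- against PBEF+/- none of these genes was called as labelled, beside 0.0% of all genes. The same held there without the 2 arrays, beside 26.4%. Edn1 was highest in VILI PBEF+/-, and Ece1 was not called in any comparison, as labelled or without the 2 arrays.

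A gene was called at a Benjamini-Hochberg adjusted p under 0.05 in limma, adjusted over all genes tested. As labelled, 0 of 8 members were called in VALI against Control, where 0.0% of the 11360 genes were called. At an unadjusted p under 0.05 there were 4 of 8, beside 18.3% of all genes. The count of calls was also 0 of 8, beside 0.0% of all genes, for VILI PBEF+/- against PBEF+/-, PBEF+/- against Control, VILI PBEF+/- against VALI and the interaction (the ventilation response in the PBEF+/- groups minus that of VALI from Control). At the unadjusted threshold VILI PBEF+/- against PBEF+/- had 2 of 8 members beside 20.7% of all genes, and PBEF+/- against Control had 0 beside 8.26%. VILI PBEF+/- against VALI had 1 beside 10.5%, and the interaction had 1 beside 5.58%. For the mean of both responses 1 of 8 was called, beside 8.36% of all genes. Without the 2 arrays, 4 of 8 were called in VALI against Control beside 17.0% of all genes, and 2 of 8 in VILI PBEF+/- against PBEF+/- beside 26.4%. In that setting the mean of both responses called 5 of 8 beside 39.5% of all genes. VILI PBEF+/- against VALI gave 0 of 8 without the 2 arrays beside 0.114% of all genes, while PBEF+/- against Control and the interaction gave 0 of 8 beside 0.0%. At the unadjusted threshold these had 1 of 8 beside 7.55% of all genes, 0 beside 11.1% and 1 beside 10.4%. The median difference of the 8 members was -0.32 in VALI against Control as labelled and -0.37 without the 2 arrays, against medians over all genes of -0.06 and -0.08. In VILI PBEF+/- against PBEF+/- it was -0.15 as labelled and -0.06 without the 2 arrays, against -0.05 and -0.07. The comparisons with a shared group are not independent of each other.

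**Figure D1:**
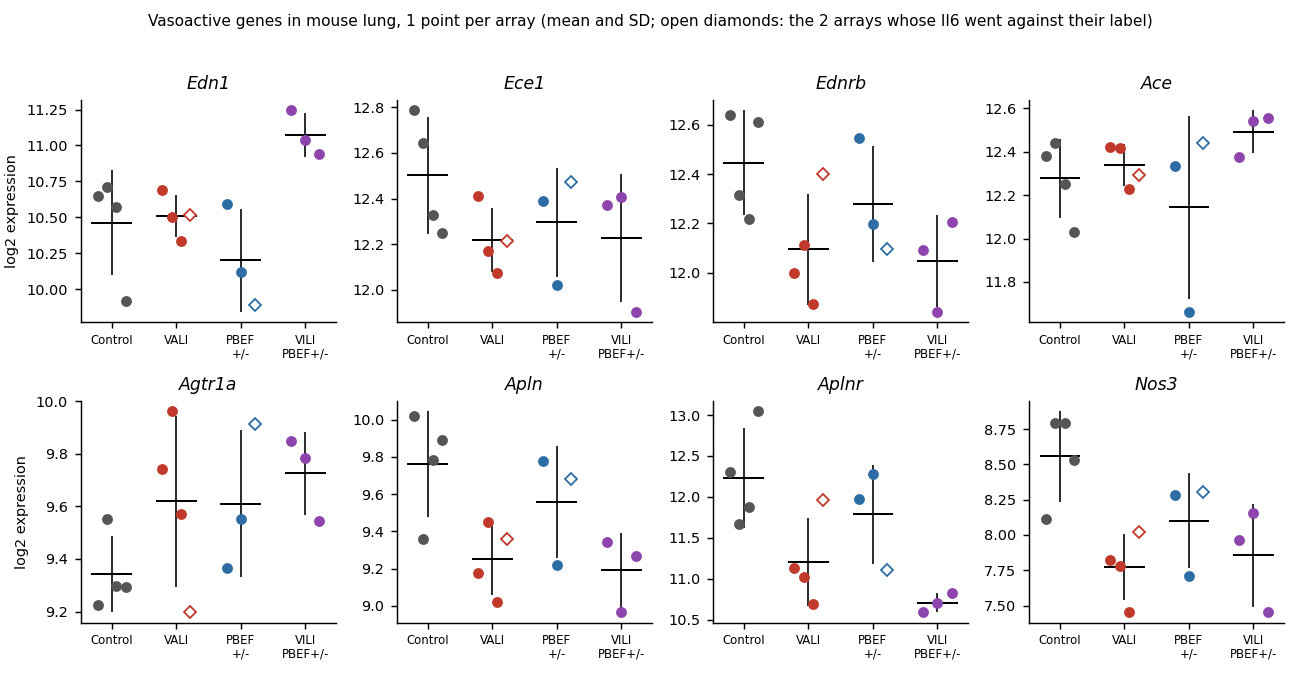
Log2 expression (vertical axis) of the 8 tested genes in each array, by group, with black lines for the mean and SD of each group and open diamonds for VALI replicate 4 and PBEF+/- replicate 3. Aplnr is below 11.2 in 7 arrays, namely VALI replicates 1 to 3, PBEF+/- replicate 3 and all VILI PBEF+/- arrays, and Edn1 is above 10.9 only in VILI PBEF+/-.

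Edn1 encodes the precursor of endothelin-1. Its log2 level was 10.65, 10.71, 10.57 and 9.92 in Control replicates 1 to 4 and 10.69, 10.50, 10.33 and 10.52 in VALI. PBEF+/- read 10.59, 10.12 and 9.89, and VILI PBEF+/- read 11.24, 11.04 and 10.94. The 3 VILI PBEF+/- arrays lay above every other array, while Control, VALI and PBEF+/- overlapped. The VALI mean differed from Control by 0.05 (95% interval -0.35 to 0.44), and a p that misses the threshold does not show that the groups were alike. VILI PBEF+/- exceeded PBEF+/- by 0.87 ± 0.21 as labelled (adjusted p = 0.127) and by 0.72 ± 0.23 without the 2 arrays, a 1.64-fold difference (adjusted p = 0.0393). The call was lost without Control replicate 3, VALI replicate 2, PBEF+/- replicate 2, or VILI PBEF+/- replicate 1 or 2, when 1 more array was left out. It was also lost with the sex pattern as a covariate (0.52, adjusted p = 0.112). Against VALI, VILI PBEF+/- was higher by 0.56 ± 0.20 as labelled (95% interval 0.14 to 0.99, adjusted p = 0.433) and by 0.57 ± 0.20 without the 2 arrays (adjusted p = 0.517). The difference between both ventilation responses was 0.83 ± 0.28 as labelled (adjusted p = 0.837) and 0.67 ± 0.30 without the 2 arrays (adjusted p = 0.474), so the responses were not shown to differ. The difference from PBEF+/- joins ventilation with the younger age of VILI PBEF+/-, and the difference from VALI joins the PBEF+/- label with that age.

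In VILI PBEF+/- against PBEF+/- as labelled, Edn1 differed by 0.87 (adjusted p = 0.127) and Apln by -0.37 (adjusted p = 0.287, 95% interval -0.79 to 0.06). Neither was called, beside 0.0% of all genes, so a difference in opposite directions was not shown. The sequences upstream of the starts of these peptide genes are given as a description. Each is the 250 bases before the annotated start in RefSeq, build GRCm38.p6, written 5′ to 3′ on the gene's strand: chr13:42301226-42301475 on the plus strand for Edn1 and chrX:48034854-48035103 on the minus strand for Apln. Capitals would mark a match on either strand to 1 of 5 motifs: TGANTCA for AP-1, GATAA for GATA factors, ACGTG for the core of hypoxia response elements, CCACCC for Kruppel-like factors, and the kappa B element bound by NF-kB. A palindromic match to the hypoxia core is found on both strands, in overlap.
Edn1: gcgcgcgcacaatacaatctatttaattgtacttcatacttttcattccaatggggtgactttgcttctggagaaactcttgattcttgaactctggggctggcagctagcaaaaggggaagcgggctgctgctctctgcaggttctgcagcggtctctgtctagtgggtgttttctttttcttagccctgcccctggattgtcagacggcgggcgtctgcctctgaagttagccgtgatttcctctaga
Apln: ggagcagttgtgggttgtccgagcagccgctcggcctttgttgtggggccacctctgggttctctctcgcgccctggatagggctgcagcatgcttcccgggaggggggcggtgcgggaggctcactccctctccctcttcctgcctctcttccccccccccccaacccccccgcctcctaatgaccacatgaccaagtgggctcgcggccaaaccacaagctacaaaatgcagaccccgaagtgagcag
Neither window held a match to any of the 5 motifs, which says only that these letters are not in this window. Of 32851 such windows over all genes, 6.75% held AP-1, 22.6% GATA, 16.6% the hypoxia core, 28.1% the Kruppel-like motif and 1.41% the kappa B element. The sequence table matched 6 of the 9 genes: Edn1, Ece1, Ednra, Ednrb, Ace and Apln. Among the other members analysed, Ednrb and the first of the windows listed for Ace also had no match. The second window for Ace held the Kruppel-like motif, and 1 of 4 windows for Ece1 held that motif, the hypoxia core and the kappa B element.

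Ece1, the endothelin-converting enzyme, read 12.79, 12.64, 12.33 and 12.25 in Control and 12.41, 12.17, 12.07 and 12.21 in VALI. PBEF+/- read 12.39, 12.02 and 12.47, and VILI PBEF+/- read 12.37, 12.41 and 11.90. Every pair of groups overlapped. VALI differed from Control by -0.28 ± 0.15 (95% interval -0.61 to 0.04), and VILI PBEF+/- from PBEF+/- by -0.07 ± 0.18 (-0.45 to 0.31). On its other probe sets, the difference of VALI from Control was -0.06 ± 0.12 and -0.90 ± 0.48. The second of these spread from 6.01 to 8.77 within Control alone.

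Ednrb, the B-type endothelin receptor, read 12.64, 12.32, 12.22 and 12.61 in Control and 12.00, 12.11, 11.87 and 12.40 in VALI. PBEF+/- read 12.54, 12.20 and 12.10, and VILI PBEF+/- read 12.09, 11.84 and 12.20. The ventilated arrays were mostly lower, and VALI replicate 4 was the highest of them. The difference of VALI from Control was -0.35 ± 0.14 as labelled (adjusted p = 0.228) and -0.45 ± 0.13 without the 2 arrays, 1.37-fold lower (adjusted p = 0.0404). That call was lost in 7 of 12 fits that left out 1 more array: Control replicate 1, 2 or 4, VALI replicate 1, 2 or 3, or VILI PBEF+/- replicate 1. It was also lost with the sex pattern as a covariate (-0.39, adjusted p = 0.112). VILI PBEF+/- differed from PBEF+/- by -0.23 ± 0.17 as labelled (95% interval -0.59 to 0.12) and by -0.33 ± 0.16 without the 2 arrays (-0.68 to 0.03, adjusted p = 0.151). Over the mean of both responses Ednrb differed by -0.29 ± 0.11 as labelled (adjusted p = 0.0939) and fell by 0.39 ± 0.10 without the 2 arrays (adjusted p = 0.013). This call was kept in 11 of 12 fits without 1 more array, all except that without PBEF+/- replicate 1, and was lost with the sex covariate (-0.33, adjusted p = 0.0793).

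The other probe sets of Ednrb gave larger differences in both ventilation responses. Probe set 1423594_a_at read 8.71, 7.88, 7.17 and 7.60 in Control, 6.74, 6.43, 6.30 and 7.08 in VALI, 7.47, 7.78 and 7.19 in PBEF+/-, and 6.97, 6.92 and 6.65 in VILI PBEF+/-. All 7 ventilated arrays, at 6.30 to 7.08, lay below all 7 unventilated arrays, at 7.17 to 8.71. VALI replicate 4, at 7.08, was the highest ventilated array, and PBEF+/- replicate 3, at 7.19, lay close to the lowest unventilated one. No other probe set of the members separated these arrays so as labelled. The share of all probe sets that do was not computed. In a limma fit over 19739 single probe sets, the mean of both ventilation responses was -0.92 ± 0.22 for this probe set as labelled (adjusted p = 0.0411), where 5.35% of probe sets were called. Probe set 1426314_at gave -0.60 ± 0.17 (adjusted p = 0.0572). Both were called in that mean without the 2 arrays (-1.06 ± 0.23, adjusted p = 0.005, and -0.65 ± 0.19, adjusted p = 0.0212), where 34.2% of probe sets were called. In VALI against Control without the 2 arrays, where 13.5% of probe sets were called, they fell by 1.35 ± 0.29 (adjusted p = 0.0136) and 0.88 ± 0.24 (adjusted p = 0.0354). As labelled that comparison called 0.0% of probe sets, with -1.20 ± 0.28 and -0.75 ± 0.23 for the pair. In VILI PBEF+/- against PBEF+/- the pair gave -0.63 ± 0.33 and -0.45 ± 0.26 as labelled, where 0.00507% of probe sets were called. In the reduced fit they gave -0.77 ± 0.35 and -0.42 ± 0.29 beside 21.7% called, and neither was called. The 3 probe sets of Ednrb thus had the same sign in both responses and differed in size.

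**Figure D2:**
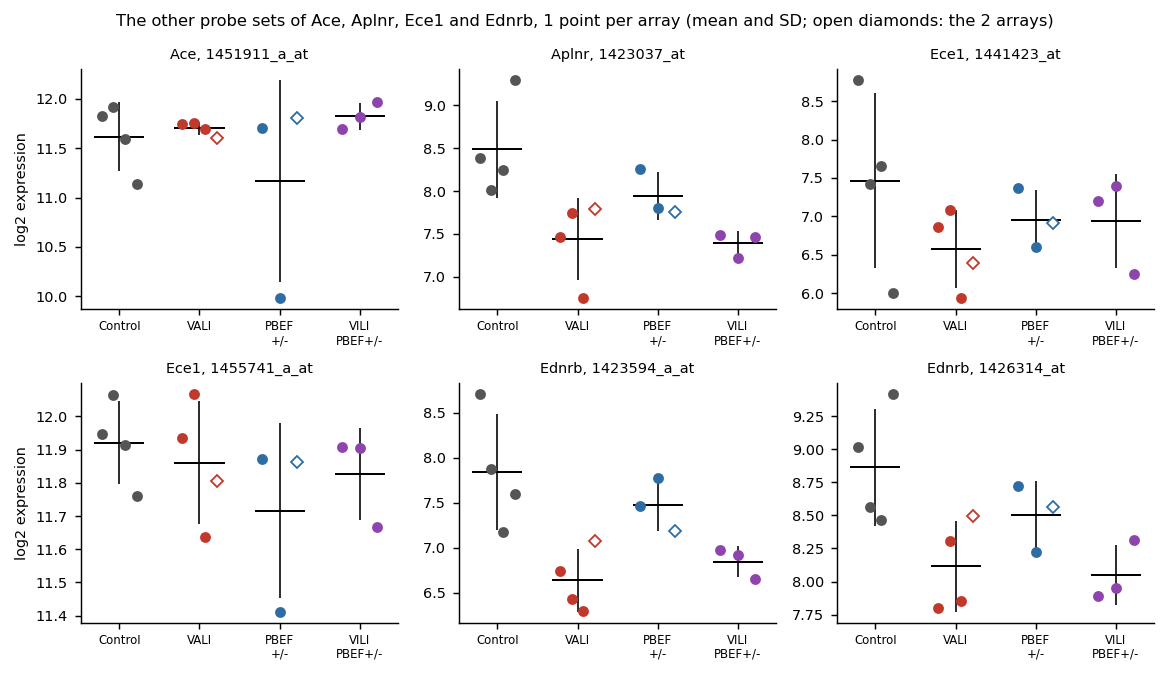
Log2 expression (vertical axis) of the 6 probe sets of Ace, Aplnr, Ece1 and Ednrb that did not stand for their gene, by group, with the mean and SD and with open diamonds for VALI replicate 4 and PBEF+/- replicate 3. Ednrb on 1423594_a_at lies at 7.08 or below in all ventilated arrays and at 7.17 or above in all unventilated arrays. On the other probe sets shown, ventilated and unventilated arrays overlap.

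Ace, angiotensin-converting enzyme, read 12.38, 12.44, 12.25 and 12.03 in Control and 12.42, 12.42, 12.23 and 12.29 in VALI. PBEF+/- read 12.33, 11.66 and 12.44, and VILI PBEF+/- read 12.38, 12.54 and 12.56. The groups overlapped as labelled, and PBEF+/- replicate 2 was the lowest array of all. The difference of VALI from Control was 0.06 ± 0.15 (95% interval -0.26 to 0.38). VILI PBEF+/- exceeded PBEF+/- by 0.35 ± 0.17 as labelled (adjusted p = 0.262) and by 0.49 ± 0.18 without the 2 arrays (adjusted p = 0.0607), neither of which was called. Those values rested on PBEF+/- replicate 2: with that array left out as well, the difference was 0.16, and with PBEF+/- replicate 1 left out in its place it was 0.83 (adjusted p = 0.0036). In both fits the lone PBEF+/- array is assumed to vary like the other groups. On the other probe set of Ace the same array read 9.98 where the remaining 13 read 11.14 to 11.97.

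Agtr1a encodes the type 1 angiotensin receptor. It read 9.22, 9.55, 9.30 and 9.29 in Control and 9.74, 9.96, 9.57 and 9.20 in VALI. PBEF+/- read 9.37, 9.55 and 9.91, and VILI PBEF+/- read 9.85, 9.78 and 9.55. The groups overlapped as labelled, with VALI replicate 4 at the level of Control and PBEF+/- replicate 3 above the other PBEF+/- arrays. Agtr1a differed between VALI and Control by 0.28 ± 0.17 as labelled (adjusted p = 0.381). Without the 2 arrays Agtr1a rose by 0.42 ± 0.13 on the log2 scale, 1.34-fold (adjusted p = 0.0451), and each of the remaining VALI arrays was above all 4 Control arrays. That call was lost in 7 of 12 fits without 1 more array: Control replicate 1, 3 or 4, VALI replicate 1 or 2, or VILI PBEF+/- replicate 1 or 2. With the sex pattern as a covariate the difference was 0.39 (adjusted p = 0.101). Over the mean of both responses Agtr1a differed by 0.20 ± 0.13 as labelled (adjusted p = 0.291) and rose by 0.34 ± 0.10 without the 2 arrays (adjusted p = 0.0189). This call was kept in 10 of 12 fits without 1 more array, all except those without PBEF+/- replicate 1 or VILI PBEF+/- replicate 1, and was lost with the sex covariate (0.32, adjusted p = 0.0799). VILI PBEF+/- differed from PBEF+/- by 0.11 ± 0.19 as labelled (95% interval -0.30 to 0.53) and by 0.27 ± 0.15 without the 2 arrays (-0.07 to 0.60).

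Apln, the gene of apelin, read 10.02, 9.36, 9.78 and 9.89 in Control and 9.17, 9.45, 9.02 and 9.36 in VALI. PBEF+/- read 9.78, 9.22 and 9.68, and VILI PBEF+/- read 9.34, 8.96 and 9.26. Ventilated arrays were lower on average, and Control replicate 2 and PBEF+/- replicate 2 lay within their range. VALI differed from Control by -0.51 ± 0.17 as labelled (95% interval -0.88 to -0.15, adjusted p = 0.174) and by -0.55 ± 0.19 without the 2 arrays (adjusted p = 0.0686), neither of which was called. For VILI PBEF+/- against PBEF+/- the difference was -0.37 ± 0.20 as labelled (-0.79 to 0.06) and -0.31 ± 0.23 without the 2 arrays (-0.80 to 0.19). The mean of both responses was -0.44 ± 0.13 as labelled (adjusted p = 0.0528). Leaving out the 2 arrays, it fell by 0.43 ± 0.15 (adjusted p = 0.0385), a call that was lost in 7 of 12 fits without 1 more array: Control replicate 1, 3 or 4, VALI replicate 1 or 3, PBEF+/- replicate 1, or VILI PBEF+/- replicate 2. It was lost with the sex pattern as a covariate too (-0.39, adjusted p = 0.135).

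Aplnr, the apelin receptor of endothelial cells, read 12.30, 11.67, 11.88 and 13.05 in Control and 11.13, 11.02, 10.70 and 11.97 in VALI. PBEF+/- read 11.97, 12.28 and 11.11, and VILI PBEF+/- read 10.59, 10.70 and 10.82. All VILI PBEF+/- arrays lay below all PBEF+/- arrays, while VALI overlapped Control through its replicate 4. PBEF+/- replicate 3, the unventilated array with high Il6, was at the level of the VALI arrays with high Il6. VALI differed from Control by -1.02 ± 0.33 as labelled (adjusted p = 0.169), and VILI PBEF+/- from PBEF+/- by -1.08 ± 0.38 (adjusted p = 0.177). The mean of both responses, at -1.05 ± 0.25, was called (2.07-fold lower, adjusted p = 0.0364). That call was lost in 11 of the 14 fits that left out 1 array, all except those without VALI replicate 4, PBEF+/- replicate 3 or VILI PBEF+/- replicate 3, with differences of -1.22 to -0.915 over all 14 fits. It was lost without the filter on low values (adjusted p = 0.0627), where more genes were tested.

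Without the 2 arrays, every ventilated array of Aplnr, at 10.59 to 11.13, lay below every unventilated array, at 11.67 to 13.05. VALI fell by 1.28 ± 0.26 against Control, 2.42-fold (adjusted p = 0.00866) and the call held in 12 of 12 fits without 1 more array, with adjusted p from 0.00564 to 0.0355. VILI PBEF+/- fell by 1.42 ± 0.32 against PBEF+/-, 2.68-fold (adjusted p = 0.00835), and the call was lost only without PBEF+/- replicate 2 (adjusted p = 0.061), where PBEF+/- was left with 1 array. Both responses differed by -0.14 ± 0.41 (95% interval -1.05 to 0.76). The second probe set, 1423037_at, gave -1.16 ± 0.30 in VALI against Control (adjusted p = 0.0291) and -0.64 ± 0.36 in VILI PBEF+/- against PBEF+/- (adjusted p = 0.224). The level of Aplnr also moved with the sex pattern. The 4 arrays with the male pattern, 3 of them unventilated, read 11.97 to 13.05. The 10 with the female pattern, 6 of them ventilated, read 10.59 to 11.97. Among unventilated arrays alone, the male pattern read 12.28 to 13.05 and the female pattern 11.11 to 11.97. With the sex pattern as a covariate the mean of both responses was -0.79 ± 0.16 as labelled (adjusted p = 0.0532). Without the 2 arrays and with that covariate, the differences were -0.93 ± 0.21 in VALI against Control (adjusted p = 0.0177) and -1.07 ± 0.24 in VILI PBEF+/- against PBEF+/- (adjusted p = 0.0132), both called. All arrays with the male pattern in that fit were unventilated. Within the female pattern the 6 ventilated arrays read 10.59 to 11.13 and the 4 unventilated arrays 11.11 to 11.97.

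Nos3, the endothelial nitric oxide synthase, read 8.11, 8.79, 8.79 and 8.53 in Control and 7.82, 7.78, 7.45 and 8.02 in VALI. PBEF+/- read 8.29, 7.71 and 8.30, and VILI PBEF+/- read 7.96, 8.16 and 7.45. All 4 VALI arrays lay below all 4 Control arrays as labelled, VALI replicate 4 included, while PBEF+/- and VILI PBEF+/- overlapped. VALI differed from Control by -0.79 ± 0.21 as labelled (95% interval -1.24 to -0.33, adjusted p = 0.122). Without the 2 arrays it fell by 0.87 ± 0.23, 1.83-fold (adjusted p = 0.0225). That call was lost in 5 of 12 fits without 1 more array: Control replicate 2 or 3, or VALI replicate 1, 2 or 3. With the sex pattern as a covariate it was larger, at -1.12 ± 0.21 (adjusted p = 0.00706). VILI PBEF+/- differed from PBEF+/- by -0.24 ± 0.24 as labelled (-0.77 to 0.28) and by -0.14 ± 0.27 without the 2 arrays (-0.73 to 0.45). Both responses were not shown to differ from each other, with 0.54 ± 0.32 as labelled (-0.15 to 1.24) and 0.73 ± 0.35 without the 2 arrays (adjusted p = 0.497). PBEF+/- itself was -0.46 ± 0.23 from Control (-0.95 to 0.04, adjusted p = 0.6). Over the mean of both responses Nos3 was called without the 2 arrays (-0.51 ± 0.18, adjusted p = 0.0391), and that call was kept in only 3 of 12 fits without 1 more array.

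**Figure D3:**
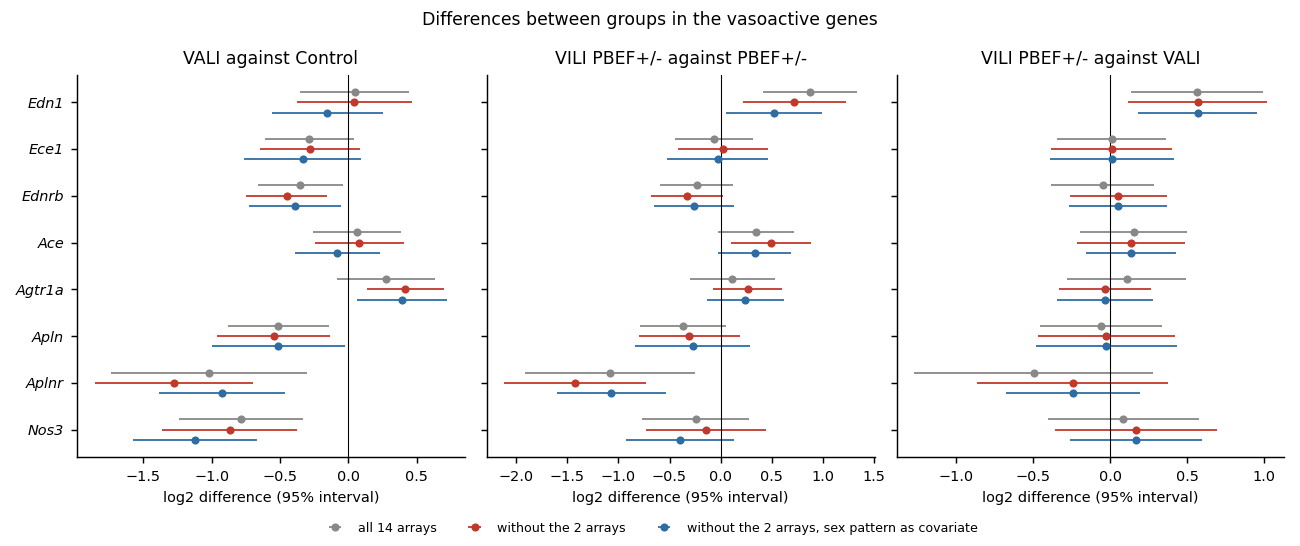
Log2 differences (horizontal axis) of the 8 tested genes in 3 comparisons, with points for the estimate and bars for its 95% interval, in grey with all arrays, in red without the 2 arrays, and in blue without them and with the sex pattern as a covariate. The Aplnr intervals lie below 0 in both ventilation comparisons in each setting, and the Nos3 intervals lie below 0 only in VALI against Control.

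PBEF+/- against Control gave no called member. As labelled the differences ran from -0.46 for Nos3 to 0.27 for Agtr1a. The median of the 8 was -0.205, and that over all genes was also below 0, at -0.0904.

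Levels of the members moved together across arrays in part. Over the 14 arrays, which share 4 groups and the same lungs for every gene, Pearson's r was 0.84 between Ednrb and Aplnr, 0.81 between Ednrb and Apln and 0.67 between Apln and Aplnr. It was -0.74 between Agtr1a and Aplnr and -0.73 between Agtr1a and Ednrb. Among all tested genes, the 3 most like Aplnr in this measure were Ube2e3 (0.97), Fgf1 (0.97) and Prickle2 (0.965). Those most like Ednrb were Zfyve9 (0.965), Tspan13 (0.95) and Pla2r1 (0.93), and those most like Nos3 were Lama3 (0.94), Hyal2 (0.89) and Gbp6 (0.87). For Agtr1a they were Tiparp, Adgrg3 and Gm11827 (0.93 each), and for Ace they were Col16a1 (0.95), Zswim8 (0.95) and Atxn2l (0.94). Likeness was weaker for Apln, led by Egflam (0.88), Vtn (0.85) and Vps9d1 (0.835), for Ece1, led by Gpatch8 (0.86), Nova2 (0.85) and Foxf1 (0.82), and for Edn1, led by Slc35a2 (0.84), Rock1 (0.78) and Gramd1a (0.76).

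Beyond the members, 4 lists of related vasoactive genes were read in the same fits. As labelled, 0.0% of all genes were called in each ventilation response and 8.36% over their mean. Without the 2 arrays the shares were 17.0% in VALI against Control, 26.4% in VILI PBEF+/- against PBEF+/- and 39.5% over the mean. Of the endothelin genes outside the members, 3 of 6 listed were tested. As labelled 0 of the 3 were called in either ventilation response or in their mean, and the smallest p in VALI against Control belonged to Edn3, the gene of endothelin-3 (-0.35 ± 0.15, adjusted p = 0.252) and Mme, the neprilysin that degrades endothelins (-0.20 ± 0.10, adjusted p = 0.314). With the 2 arrays left out, Ece2, a second endothelin-converting enzyme, rose in both ventilated groups, each against its unventilated group. The rise was 0.55 ± 0.17 in VALI (adjusted p = 0.0434) and 0.87 ± 0.20 in VILI PBEF+/- (adjusted p = 0.00927). Mme fell by 0.42 ± 0.10 in VILI PBEF+/- against PBEF+/- (adjusted p = 0.0143).

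The renin-angiotensin list had 4 of 12 genes tested, and as labelled 0 were called in either ventilation response or in their mean. The smallest p in VALI against Control belonged to Enpep, the aminopeptidase that degrades angiotensin II (-0.32 ± 0.09, adjusted p = 0.153), and Agtrap, a protein bound to the type 1 angiotensin receptor (-0.43 ± 0.18, adjusted p = 0.241). In the fit without the 2 arrays Agtrap fell by 0.57 ± 0.16 in VALI against Control (adjusted p = 0.0333), where 17.0% of all genes were called. In VILI PBEF+/- against PBEF+/- 0 of 4 were called, beside 26.4% of all genes. Over the mean of both responses Agtrap (-0.55 ± 0.13, adjusted p = 0.00602) and Enpep (-0.22 ± 0.08, adjusted p = 0.0406), were called in that setting.

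Of the apelin and nitric oxide pathway genes, 12 of 15 were tested. As labelled, 1 was called higher and 3 lower over the mean of both responses, beside 8.36% of all genes. Gch1, the first enzyme of tetrahydrobiopterin synthesis and so of the cofactor of nitric oxide synthases, rose by 1.81 ± 0.38 (adjusted p = 0.0303). Ddah2, which degrades methylated arginines that inhibit nitric oxide synthases, fell by 0.71 ± 0.20 (adjusted p = 0.0461). Gucy1a1, a subunit of the nitric oxide receptor guanylate cyclase, fell by 0.55 ± 0.12 (adjusted p = 0.0332), and Cav1, the caveolin that binds Nos3, fell by 0.21 ± 0.05 (adjusted p = 0.0327). The median of the 12 was -0.26 against -0.05 over all genes. Once the 2 arrays were left out, 1 was called higher and 3 lower in VALI against Control, beside 17.0% of all genes. The counts were 2 higher and 4 lower in VILI PBEF+/- against PBEF+/-, beside 26.4%. In the latter Gch1 rose by 2.93 ± 0.27, as did the chaperone gene Hsp90aa1 by 0.70 ± 0.13. Gucy1a1 (-0.85 ± 0.14) and Pde5a, which degrades cyclic GMP (-1.18 ± 0.27), fell.

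Levels of Gch1 by array show how the labels bear on this. It read 7.44, 7.98, 8.00 and 7.95 in Control, 9.36, 9.75, 9.92 and 8.08 in VALI, 7.52, 7.55 and 9.75 in PBEF+/-, and 10.63, 10.85 and 9.90 in VILI PBEF+/-. VALI replicate 4 was at the level of Control here, and PBEF+/- replicate 3 was at that of the ventilated arrays. Gucy1a1 read 12.89 to 13.29 in Control and 12.50 to 12.87 in VALI, and 12.61 to 13.48 in PBEF+/- and 12.34 to 12.67 in VILI PBEF+/-.

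In the list of kinin, adrenomedullin and natriuretic peptide genes 11 of 13 were tested. As labelled, 2 of these were called higher and 1 lower over the mean of both responses, beside 8.36% of all genes. Bdkrb1 and Bdkrb2, the bradykinin receptors, rose by 1.93 ± 0.49 (adjusted p = 0.0383) and 1.67 ± 0.45 (adjusted p = 0.0433), and Npr2, the receptor of C-type natriuretic peptide, fell by 0.42 ± 0.12 (adjusted p = 0.0478). Leaving out the 2 arrays, 3 were called higher and 2 lower in VALI against Control, beside 17.0% of all genes, and 4 higher and 2 lower in VILI PBEF+/- against PBEF+/-, beside 26.4%. Bdkrb1 rose by 2.10 ± 0.37 in the first of these and by 3.15 ± 0.44 in the second, and Bdkrb2 by 1.90 ± 0.29 and 2.79 ± 0.35. Calcrl, the receptor that binds adrenomedullin, fell by 0.52 ± 0.12 and 0.56 ± 0.14. Adm, the gene of adrenomedullin, differed by 1.04 ± 0.71 in VALI against Control (adjusted p = 0.339) and rose by 4.75 ± 0.85 in VILI PBEF+/- against PBEF+/- (adjusted p = 0.00293). It read 3.87 in PBEF+/- replicate 2, the lowest of the 14 arrays, and 7.48 in PBEF+/- replicate 1, so the size of that rise rests on 2 arrays far apart.

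**Figure D4:**
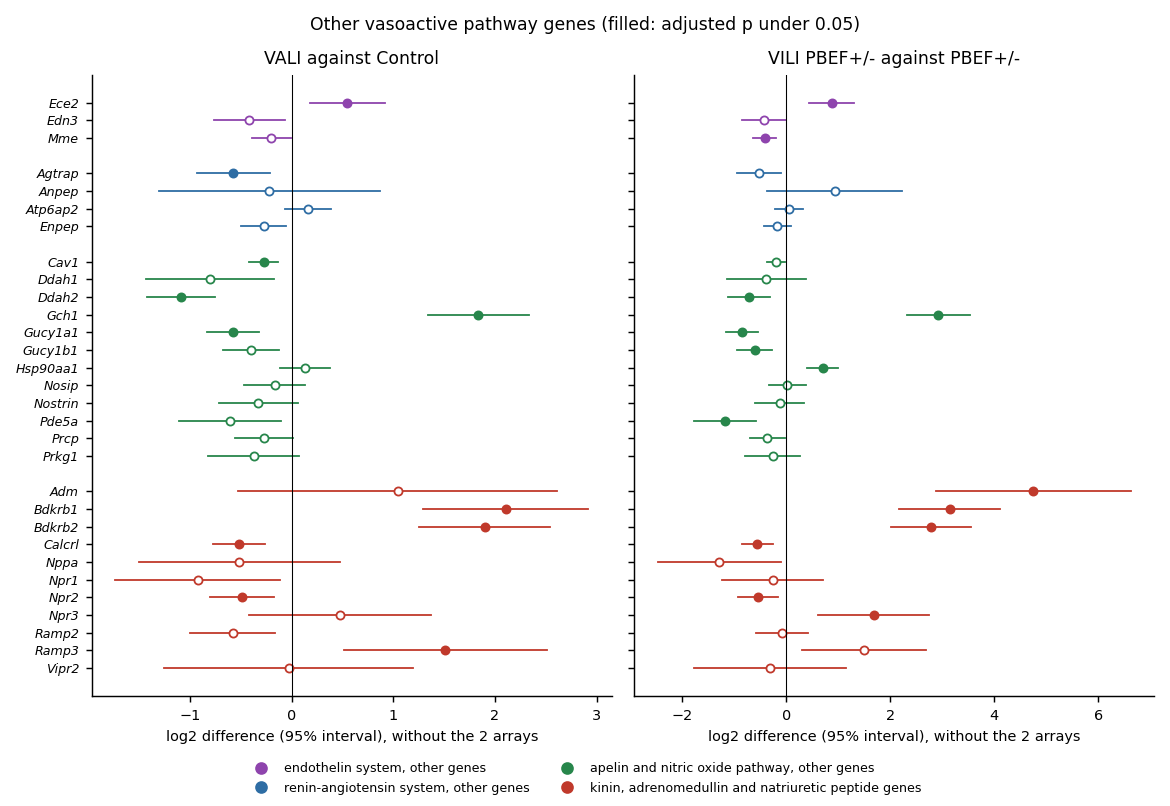
Log2 differences (horizontal axis) with 95% intervals of the tested genes of the 4 pathway lists in VALI against Control and in VILI PBEF+/- against PBEF+/-, without the 2 arrays, with filled points for genes called and colours for the lists. Gch1, Bdkrb1 and Bdkrb2 stand to the right of 0 in both panels, and Gucy1a1, Ddah2, Calcrl and Npr2 to the left.

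Lists of cell type markers were read in the same fits. Of 12 endothelial markers, all tested and none at 0, 0 were called in VALI against Control as labelled. In the fit without them 0 were called higher and 3 lower in VALI (Tek at -0.89, Egfl7 at -0.62 and Kdr at -0.94) beside 17.0% of all genes called, and 1 higher and 3 lower in VILI PBEF+/- against PBEF+/- beside 26.4%. The median endothelial difference was -0.25 and -0.29 in VALI against Control, as labelled and without the 2 arrays, and 0.04 and 0.06 in VILI PBEF+/- against PBEF+/-. The mean level of the 12 was 12.37 to 12.48 in Control, 11.95 to 12.24 in VALI, 12.05 to 12.33 in PBEF+/- and 12.07 to 12.15 in VILI PBEF+/-. The 10 smooth muscle and pericyte markers gave 0 calls in VALI against Control in both settings, with mean levels of 10.43 to 10.93 in Control and 9.99 to 10.87 in VALI. All 7 tested neutrophil markers rose in both responses without the 2 arrays. Their mean level was then 5.69 to 6.75 in Control and 10.28 to 10.90 in VALI. It was 5.93 to 7.34 in PBEF+/- and 10.78 to 11.02 in VILI PBEF+/-. The arrays left out read 6.75 (VALI replicate 4) and 10.64 (PBEF+/- replicate 3). Heart muscle markers averaged 12.06 and 12.04 in PBEF+/- replicates 1 and 2 and 10.92 to 11.48 in VILI PBEF+/-, and 4 of 9 were called lower there without the 2 arrays. Without the 2 arrays, markers of club and ciliated cells gave 4 of 6 lower in each response, and those of alveolar type I cells 3 of 6 lower in VALI and 1 of 6 lower in VILI PBEF+/-. Alveolar type II markers gave 0 of 5 in each response, and fibroblast markers 1 of 8 lower in VALI and 0 of 8 in VILI PBEF+/-. Of 7 tested macrophage markers 1 was higher in VALI and 1 lower in VILI PBEF+/-, and of 4 tested skeletal muscle markers 1 (Acta1) was higher in each response. As labelled, no list of cell type markers had a call in either response in limma, where 0.0% of all genes were called. Over the mean of both responses as labelled, 5 of 7 neutrophil and 1 of 4 skeletal muscle markers were called higher, beside 8.36% of all genes. Called lower there were 4 of 6 club and ciliated, 2 of 12 endothelial and 1 of 5 alveolar type II markers, with no call in the other cell type lists. The median differences in VALI and in VILI PBEF+/- were then 2.34 and 2.28 for neutrophil markers and 3.85 and 0.86 for skeletal muscle markers. The part of these cell types in the differences of the members was not tested.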

How the data were processed

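Total RNA of 14 mouse lung samples, 6 µg each and extracted with Trizol per the labels, was labelled with biotin as cRNA and hybridised. Values were deposited as log2 expression per probe set (45101 probe sets, 0.446 to 16.1, array medians 4.6 to 4.75, no value missing). MAS5 and GCRMA appear, per the submitters' processing notes, with no version or role, so the background correction and normalization behind the values are not given in the sources used here, and no further scaling was applied. The platform annotation gave 34958 probe sets 1 symbol, 932 several and 9211 none, and only the first were used.

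Genes whose probe set lay above the median of the array on 3 or more of the 14 arrays were kept, 11360 in all. Group means were estimated in limma 3.58.1 under R 4.3.3 (eBayes, trend on mean level), a step tested on simulated data, with Benjamini-Hochberg adjustment over all genes tested. All adjusted p-values come from limma, ± after a difference is its standard error, and intervals are at 95%. The number of arrays limits the precision.

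The members and the gene lists were chosen with earlier results of these data known. The 2 arrays were picked for their Il6 values, so calls without them are conditional on that choice. Arrays with equal replicate numbers did not deviate together (correlations of -0.352 to 0.316 over 19 pairs), so the main fit did not pair them. With groups of 3 or 4 arrays this cannot exclude a pairing. Genes named were the members, the called genes of each pathway list (up to 4 by p, or, with no call, the pair of lowest p in VALI against Control), up to 3 cell type markers of a list, and the 3 genes most like each member. The lists held 4 sets of pathway genes and markers of endothelial cells, smooth muscle and pericytes, fibroblasts, alveolar type I and II cells, club and ciliated cells, neutrophils, macrophages, heart and skeletal muscle. Alternatives were the arrays used, the filter, normalization, variance model, array weights, sex pattern, replicate block and choice of probe set. Figures were drawn with matplotlib 3.10.9.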

Additional observations from a re-analysis of the deposited data

How the results depend on the processing

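Leaving out the 2 arrays called 4, 2 and 5 members (1933, 3003 and 4485 genes) in VALI against Control, VILI PBEF+/- against PBEF+/- and the mean of both responses, and 13 genes in VILI PBEF+/- against VALI. Array weights called 4 members and 4689 genes in VALI against Control, 2 and 3363 in VILI PBEF+/- against PBEF+/-, 1 and 1711 in VILI PBEF+/- against VALI, 6 and 5751 over the mean, and 20 genes in the interaction. For the mean of both responses, members and genes called were 0 and 99 with no filter, 0 and 0 with the sex pattern as a covariate, 2 members under quantile normalization, median centring or female-pattern arrays only, and 601 genes with the second probe set. Fitting only the compared groups called 27 genes in VALI against Control and 1 in VILI PBEF+/- against VALI. The second probe set and the median of probe sets called 1 gene each in VILI PBEF+/- against PBEF+/- and 3 and 1 in VILI PBEF+/- against VALI. The replicate block called 3 members over the mean of both responses against 1 without it, and its other counts stayed within 1.5 times. As labelled, that mean called 950 genes, 8.36% of those tested. A member count given here without a gene count beside it is not read as a result about the members.

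Alternatives added after seeing the data were female-pattern arrays only, the same without PBEF+/- replicate 3, the sex covariate without the 2 arrays, and 1 more array left out. Female-pattern arrays called 41 genes in VALI against Control, 5 in PBEF+/- against Control and 1 in the interaction. Without PBEF+/- replicate 3 they called 2 members and 1995 genes in VALI against Control, 2 and 2816 in VILI PBEF+/- against PBEF+/-, 4 and 4431 over the mean, 41 genes in PBEF+/- against Control, 36 in VILI PBEF+/- against VALI and 10 in the interaction. The sex covariate without the 2 arrays called 2 members and 1588 genes, 1 and 2136, and 2 and 3123 in the first, second and mean comparisons, and 13 genes in VILI PBEF+/- against VALI. Fits that left out 1 array, or the 2 arrays and 1 more, called 0 to 5 members and 0 to 2524 genes in VALI against Control, 0 to 1 and 0 to 1892 in PBEF+/- against Control, 0 to 3 and 0 to 3710 in VILI PBEF+/- against PBEF+/-, 0 to 1 and 0 to 1242 in the interaction, 0 to 5 and 0 to 4832 over the mean, and 0 to 107 genes in VILI PBEF+/- against VALI. The highest gene counts came from leaving out PBEF+/- replicate 1 beside the 2 arrays, which leaves PBEF+/- replicate 2 as the only array of its group, except in VILI PBEF+/- against VALI, where VILI PBEF+/- replicate 3 was left out. The cause of these changes was not tested. The member called as labelled, Aplnr over the mean of both responses, kept its sign in all 41 alternatives and its call in 28. These alternatives overlap and are not independent: 12 of the 28 left out the 2 arrays and 1 more. Of the 14 fits that left out 1 array, 3 kept the call.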
